A study of Mus musculus with 9 samples.

Results

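The 33 genes described here code for the folding machinery of the endoplasmic reticulum (ER) and for the unfolded protein response, the signalling pathway that answers misfolded protein in that compartment. They were taken by gene symbol from the deposited matrices and comprise 15 chaperones and folding enzymes, 8 genes of ER-associated degradation (ERAD), 2 subunits of the Sec61 translocon and 8 sensors and transcription factors. No measured value entered that step, but the list was chosen with earlier results of these data known. It includes Hspa5 and Edem2, which the study names among its changed genes. All 33 were found among the 19517 genes with a unique molecular identifier (UMI) in at least 3 barcodes, out of 31053 genes listed. The study asked how aging, and systemic inhibition of the small RhoGTPase Cdc42 in aged mice, alter gene expression in haematopoietic stem and progenitor cells. Single-cell RNA-seq (10x Genomics, 3' v3 chemistry) was run on Lin- cKit+ Sca1+ (LSK) cells, the sorted bone marrow fraction that holds haematopoietic stem cells (HSCs) and multipotent progenitors, after viably frozen cells had been thawed. The 9 samples came from C57BL/6 mice: 3 young samples (10 to 12 weeks), 3 aged samples (over 80 weeks) and 3 CASIN samples, from aged mice (over 80 weeks) given the Cdc42 inhibitor CASIN at 25 mg/kg in cyclodextrin. Mice of all groups received intraperitoneal injections over 4 days at intervals of 24 h, and the young and aged mice received the cyclodextrin vehicle alone. The labels give no sex and no number of mice per sample, so p-values measure only the spread between these samples, which may be partly technical.

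Secreted and membrane proteins enter the ER through the Sec61 channel and fold there with the help of the Hsp70 chaperone BiP (Hspa5), the Hsp90 paralog Grp94 (Hsp90b1), the lectin chaperones calnexin and calreticulin, and protein disulfide isomerases. Proteins that fail to fold are picked out by the Edem lectins and handed to a membrane complex of Sel1l, the ubiquitin ligase Hrd1 (Syvn1) and the derlins, which passes them to the proteasome. Misfolded protein is sensed by Ire1 (Ern1), Perk (Eif2ak3) and Atf6, which act through the transcription factors Xbp1, Atf4 and cleaved Atf6 to raise chaperones and ERAD genes. Perk itself also slows translation. HSCs are known for a low rate of protein synthesis and for their sensitivity to misfolded protein.

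Some promoters of these genes hold a known ER stress element, which is shown here because later results are split by it. RefSeq (GRCm38.p6) promoter windows, from 250 bases before to 50 bases after the gene start, were at hand for 28 of the 33 genes. The ER stress response element (ERSE), CCAAT and CCACG set 9 bases apart on either strand, was present in 8 of the 28 (28.6%). It was present in 0.137% of 27025 genes with a window. The related ERSE-II, ATTGG and CCACG set 1 base apart on either strand, was in 2 of the 28 (7.14%), against 0.0444% of genes. The genes with an ERSE were Hspa5, Hsp90b1, Calr, Canx, Creld2, Dnajc3 and Pdia6 among the folding genes and Syvn1 among the ERAD genes, and those with an ERSE-II were Dnajb11 and Herpud1. The unfolded protein response element TGACGTGG, searched on both strands, was in none of the 28 windows (0.714% of genes), and neither was the Atf4-type composite element TGATGNAAT (1.08% of genes). The other 18 windows, those of P4hb, Pdia3, Pdia4, Dnajb9 and Sdf2l1 among them, held no element. These counts describe letters in a window and not binding. The 3 windows below run 250 bases up to the gene start, 5' to 3' on the gene's strand, with the fixed letters of each element in capitals.
Hspa5, chr2:34771840-34772089 (+ strand): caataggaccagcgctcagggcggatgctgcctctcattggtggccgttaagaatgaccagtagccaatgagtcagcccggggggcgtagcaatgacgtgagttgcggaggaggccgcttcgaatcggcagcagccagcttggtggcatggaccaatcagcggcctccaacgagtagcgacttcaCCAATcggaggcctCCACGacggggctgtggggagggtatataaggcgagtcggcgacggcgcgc
Hsp90b1, chr10:86705445-86705694 (- strand): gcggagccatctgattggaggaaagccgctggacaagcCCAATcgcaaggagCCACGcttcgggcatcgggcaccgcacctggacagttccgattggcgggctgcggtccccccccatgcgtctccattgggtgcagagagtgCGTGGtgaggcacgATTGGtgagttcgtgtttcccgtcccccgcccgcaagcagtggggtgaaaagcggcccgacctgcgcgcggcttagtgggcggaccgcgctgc
Herpud1, chr8:94386179-94386428 (+ strand): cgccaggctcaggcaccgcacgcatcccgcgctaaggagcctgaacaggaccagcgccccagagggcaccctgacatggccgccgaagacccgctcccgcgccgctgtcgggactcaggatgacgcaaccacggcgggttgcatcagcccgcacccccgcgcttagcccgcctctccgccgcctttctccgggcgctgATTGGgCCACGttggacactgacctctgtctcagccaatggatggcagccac

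The element of Hspa5 began 65 bases before the start, that of Herpud1 52 bases before it, and Hsp90b1 held a pair, on opposite strands, beginning 212 and 107 bases before the start. The values of the genes with and without an element are set side by side after each comparison. Most genes with an element are chaperones, so this split overlaps the split by role. The part of the element itself was not tested.

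After filtering, 15856 cells remained, 1112 to 2417 per sample, with a median of 9532 to 14622 UMIs per cell and 17555578 to 35118707 UMIs per sample. Levels are given as UMI counts scaled to the total of a sample (CPM). With 3' tags they compare a gene between samples and not one gene with another. The LSK markers Kit (112 to 225 CPM) and Ly6a (87.9 to 186 CPM) were present in every sample, and the T-cell gene Cd3e reached at most 0.338 CPM. The libraries were sequenced in 2 batches: batch 1 held young 1 and 2, aged 1, and CASIN 1 and 2, and batch 2 held young 3, aged 2 and 3, and CASIN 3. The batches differed in the cells kept (56.4% to 86.2% of barcodes against 31.6% to 38.4%), in the mitochondrial share of the kept cells (medians of 2.65% to 3.49% against 5.03% to 7.0%) and in sex-linked RNA. Xist, the RNA of the inactive X chromosome, stood at 0.0285 to 0.163 CPM in batch 1 and 2357 to 2794 CPM in batch 2, while the Y-linked Eif2s3y stood at 76.7 to 81.5 CPM in batch 1 and at 0 in batch 2. A difference between the batches therefore cannot be told apart from one of sex or of cell quality. All 33 genes passed the filter on low counts in all LSK cells. Of the kept cells, 125 (0.788%) shared their barcode sequence with a cell of another library.

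With age, 2 of the 33 genes, Ppp1r15a and Atf4, rose in all LSK cells, where 4.1% of all genes passed in either direction. Ppp1r15a (Gadd34, the phosphatase subunit that lets translation resume, at chr7:45522916-45526268 on the minus strand of GRCm38) was 0.70 ± 0.10 higher on the log2 scale in aged than in young samples (log2FC ± SE, edgeR quasi-likelihood test with the batch as a term, Benjamini-Hochberg adjusted p = 0.0120). Atf4 (the transcription factor of the integrated stress response, at chr15:80255184-80257541 on the plus strand) was 0.31 ± 0.071 higher (edgeR adjusted p = 0.0427). None of the 15 chaperones, 8 ERAD genes or 2 translocon genes passed, although 3 ERAD genes, 2 translocon genes and 1 chaperone had an unadjusted p below 0.05. Such a p was also held by 3006 of all 13642 genes tested. Over all 13642 genes tested, 4.1% passed in either direction, against 2 of 33 here.

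Ppp1r15a measured 158, 179.9 and 45.5 CPM in the young samples, 294, 70.7 and 61.2 in the aged and 231, 250.4 and 54.8 in the CASIN samples. The aged value was the highest of its batch in both batches, since aged 1 lay above the 4 other samples of batch 1 and aged 2 and 3 lay above young 3 and CASIN 3. Atf4 measured 126, 127 and 363 CPM in the young samples, 165, 411 and 425 in the aged and 141, 138 and 352 in the CASIN samples. In batch 1 aged 1 was again the highest sample, and in batch 2 aged 2 and 3 were the highest. The 3 groups overlap for both genes when the batches are pooled.

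The call of Ppp1r15a was lost when young 1, young 2 or aged 1 was left out (adjusted p from 0.0508 to 0.0631, log2FC from 0.62 to 0.79 over the 9 libraries left out in turn). That of Atf4 was lost in 7 of those 9 fits, all but those without young 3 or aged 2 (adjusted p up to 0.179, log2FC from 0.28 to 0.38).

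Most chaperones were slightly higher in the fit for aged samples, none past the threshold. Of 15 genes, 14 had a log2FC above 0 (median 0.14), against 52.4% of all genes tested. P4hb, a protein disulfide isomerase, had the largest fold change at 0.30 ± 0.11 (edgeR adjusted p = 0.148). It measured 72.5, 64.9 and 98.9 CPM in the young samples, 76.5, 121 and 127 in the aged and 89.7, 79.2 and 99 in the CASIN samples. The aged sample was above the mean of the young in both batches, by 0.16 and 0.32 log2 units. Hspa5, the master chaperone of the ER, measured 484, 394 and 911 CPM in the young samples, 355, 1373 and 2039.6 in the aged and 333, 225 and 1188 in the CASIN samples. Its fitted log2FC was 0.23 ± 0.28 (edgeR adjusted p = 0.693). Calr, the soluble lectin chaperone, measured 422, 356 and 593 CPM in the young samples, 328, 954 and 967 in the aged and 401, 305 and 653 in the CASIN samples. Its log2FC was 0.27 ± 0.19 (adjusted p = 0.454, edgeR). Sdf2l1, a stress-induced partner of the ER Hsp40 proteins, measured 81.7, 63.3 and 32.7 CPM in the young samples, 52.4, 63.4 and 57.4 in the aged and 59.7, 37 and 31.2 in the CASIN samples. Its log2FC was 0.24 ± 0.29 (adjusted p = 0.682, edgeR). For Hspa5, Calr and Sdf2l1 alike, aged 1 was below the young samples of its batch and aged 2 and 3 were above young 3.

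The ERAD genes had no common direction: 3 of 8 were above 0 (median -0.047). Herpud1, a membrane scaffold of the Hrd1 complex, measured 74.3, 69.3 and 329 CPM in the young samples, 61.8, 229 and 299.9 in the aged and 59.6, 63.7 and 320.4 in the CASIN samples. It was lower in aged samples within both batches without passing (-0.28 ± 0.11, edgeR adjusted p = 0.180). Derl2, a derlin, measured 30.9, 28.6 and 43 CPM in the young samples, 24.5, 34.4 and 40.0 in the aged and 24.9, 27.2 and 44.5 in the CASIN samples. It was -0.26 ± 0.10 (edgeR adjusted p = 0.177), with the aged values below the young in both batches. Derl1, its paralog, measured 55.1, 53.6 and 82.7 CPM in the young samples, 48, 83.3 and 92.2 in the aged and 46.6, 44.8 and 78.3 in the CASIN samples, with a log2FC of -0.039 ± 0.087 (adjusted p = 0.839, edgeR). Edem2, the lectin that trims mannose from misfolded glycoproteins, measured 74.3, 70.6 and 57.4 CPM in the young samples, 59.7, 67.2 and 60.9 in the aged and 59.6, 53.9 and 53.4 in the CASIN samples. Its log2FC was -0.054 ± 0.11 (adjusted p = 0.818, edgeR). Of the translocon, Sec61b measured 658, 664 and 505 CPM in the young samples, 559.7, 439 and 452 in the aged and 565, 603 and 421 in the CASIN samples. Its log2FC was -0.19 ± 0.068 (adjusted p = 0.152, edgeR). Sec61a1, the channel itself, measured 36.3, 34.3 and 82.9 CPM in the young samples, 39.1, 92.5 and 92.1 in the aged and 40.5, 39.5 and 89.2 in the CASIN samples. Each aged value was above the young values of its batch, and the log2FC was 0.17 ± 0.071 (adjusted p = 0.196, edgeR). Among the 8 sensors and transcription factors, 5 were above 0 (median 0.040), and Trib3, an Atf4-induced pseudokinase gene at chr2:152337422-152344032 (minus strand), had the lowest value, -0.49 ± 0.36 (edgeR adjusted p = 0.468). Xbp1, the factor that Ire1 activates by splicing, measured 67.3, 59.6 and 135 CPM in the young samples, 62.2, 184 and 238 in the aged and 59.3, 59.7 and 179 in the CASIN samples. It gave 0.30 ± 0.16 (edgeR adjusted p = 0.300), with aged 2 and 3 above young 3 in batch 2 and aged 1 between young 1 and 2 in batch 1. The 10 genes with an ERSE or ERSE-II had a median log2FC of 0.13, with 8 above 0, and the other 18 with a promoter window had a median of 0.049, with 11 above 0.

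**Figure D1:**
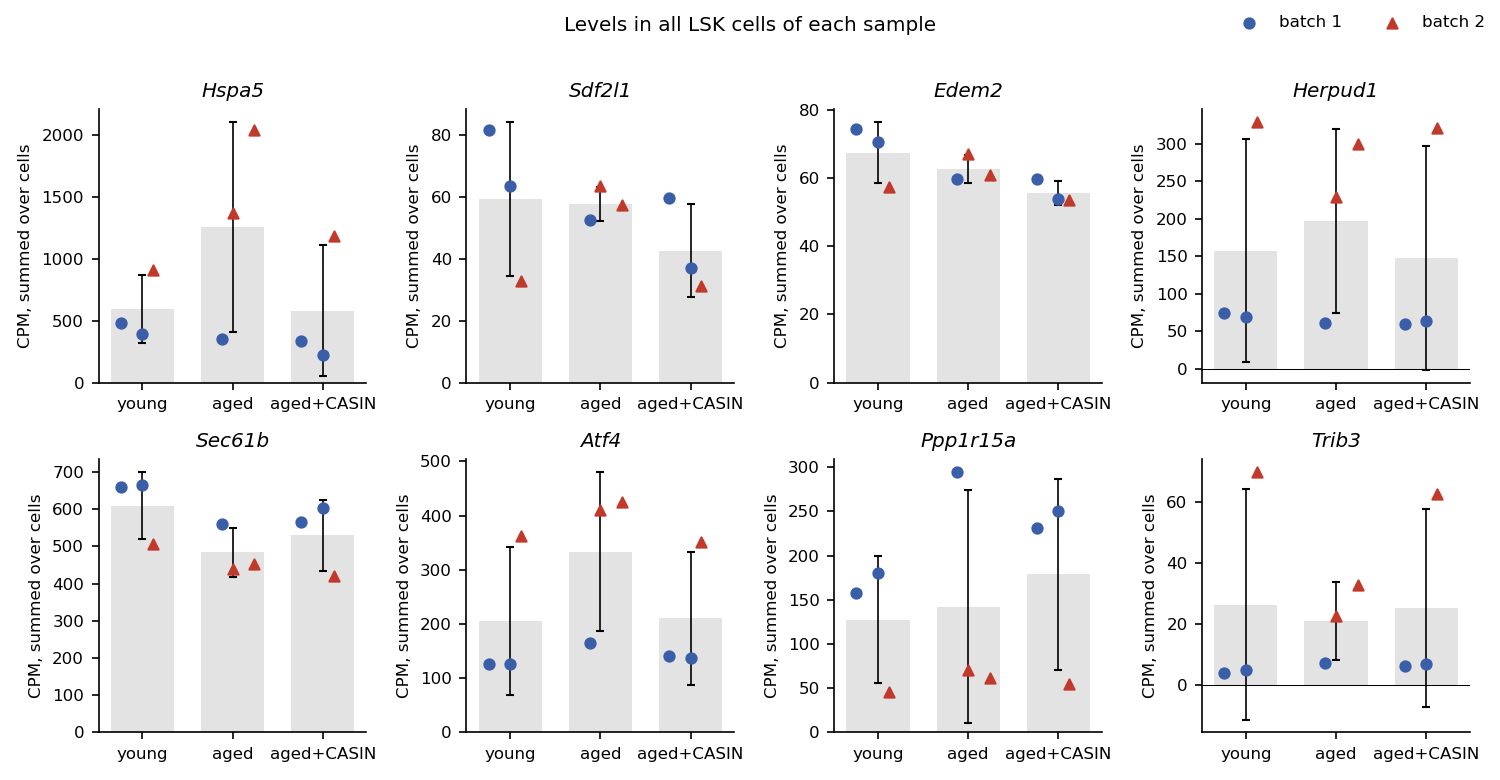
CPM (y axis) of 8 genes in all LSK cells of each sample, by group; grey bars are group means, error bars the SD over 3 samples, circles batch 1 and triangles batch 2. In batch 2 Hspa5 was 911 CPM in young 3, 1373 and 2039.6 CPM in the aged samples and 1188 CPM in CASIN 3, and aged samples had the highest Ppp1r15a and Atf4 of each batch.

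The LSK classes were rebuilt by clustering without the 33 genes and named from the marker genes the study lists. Besides all LSK cells, tests between groups were run in 4 classes, each with at least 27 cells a sample. They included HSC-1-like cells (4146, expressing Procr, Mllt3 and other stem-cell genes) and HSC-2-like cells (1046, marked by immediate-early genes). HSC-2-like cells were mostly drawn from the same cells, with 1004 shared with HSC-1-like. The others were HSC-3-like cells (843, with MHC class II genes) and LMPP-like cells (2670, lymphoid-primed, with Dntt and Flt3). Other classes were not tested between groups, also where they held more cells, as MPP3-like cells did (4363, 296 to 657 a sample). A fall of a gene in all LSK cells can come from fewer cells of a type or from less RNA per cell, which cannot be told apart there.

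In HSC-1-like cells 3 of 33 genes passed between aged and young, where 11.1% of 11689 genes did. Ppp1r15a rose, with a log2FC of 0.80 ± 0.11 (edgeR adjusted p = 0.000854). It measured 245, 275 and 64.6 CPM in the young samples, 429, 101 and 105 in the aged and 350.3, 434 and 78.5 in the CASIN samples. Atf4 rose as well, with a log2FC of 0.46 ± 0.088 (edgeR adjusted p = 0.00540). It measured 139.9, 141 and 285 CPM in the young samples, 194, 352 and 345 in the aged and 161, 147 and 271 in the CASIN samples. In each batch every aged value of these genes exceeded every young value. Sec61b (a small translocon subunit, at chr4:47474658-47483242 on the plus strand) fell, with a log2FC of -0.31 ± 0.084 (edgeR adjusted p = 0.0309). It measured 529, 529.8 and 432 CPM in the young samples, 420.2, 298 and 338 in the aged and 416, 408 and 304 in the CASIN samples, and the 3 aged values lay below the 3 young values across both batches. The call of Ppp1r15a in HSC-1-like cells held with each of the 9 libraries left out (log2FC from 0.72 to 0.85). That of Atf4 held in 8 of 9 (adjusted p = 0.0880 without aged 1, log2FC from 0.41 to 0.52). That of Sec61b held in 3 of 9, those without aged 3, CASIN 2 or CASIN 3 (adjusted p up to 0.138). In this fit HSC-1-like cells hold 1004 of the 1046 HSC-2-like cells, which Ppp1r15a marks. The part of their number, 27 to 247 a sample, in its rise was not tested. Ppp1r15a also passed in HSC-1-like cells with clusters of the finer resolution 0.8, where HSC-2-like cells form a class of their own. Whether cells high in immediate-early genes remained among the HSC-1-like cells of that clustering was not tested.

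In the other classes fewer genes passed. In HSC-2-like cells 6.14% of genes passed, but Ppp1r15a belongs to the stress-induced genes that define those cells and is not counted there. Of the other 32 genes 0 passed by edgeR, with 4 below an unadjusted p of 0.05, against 1756 of 9700 genes tested. In HSC-3-like cells 0 of 32 tested genes passed (Eif2ak3 was too low to be tested, 1.63% of all genes), with 4 below an unadjusted p of 0.05 and a smallest adjusted p of 0.0794. Of all 8473 genes tested there, 1043 were below an unadjusted p of 0.05. In LMPP-like cells 0 of 33 passed (0.148% of all genes), with 5 below an unadjusted p of 0.05, against 956 of 10807 genes tested. The lowest value there belonged to Trib3, which measured 4.06, 5.06 and 28.6 CPM in the young samples, 2.30, 5.38 and 7.73 in the aged and 4.53, 4.65 and 12.4 in the CASIN samples. Its log2FC was -1.71 ± 0.32 (edgeR adjusted p = 0.0687). DESeq2 called 3 genes in at least 1 class, as edgeR did. The chaperones were above 0 in 11 of 15 cases in HSC-1-like, 6 in HSC-2-like, 10 in HSC-3-like and 13 in LMPP-like cells, with medians of 0.072, -0.15, 0.073 and 0.13.

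Whether the aging change of a gene differed between classes was tested directly between LMPP-like and HSC-1-like cells, with each sample as a block. Only Trib3 passed, 1 of 33 genes where 3.22% of 11908 genes did: its log2FC in LMPP-like cells minus that in HSC-1-like cells was -1.49 ± 0.26 (edgeR adjusted p = 0.00171). In HSC-1-like cells Trib3 measured 9.20, 12.6 and 106 CPM in the young samples, 13.1, 66.3 and 82.7 in the aged and 10.7, 15.4 and 104 in the CASIN samples, so the level itself was higher than that of LMPP-like cells in each batch. The call of Trib3 held in 8 of 9 fits that left out a library. It was lost without young 3, the sample with the highest Trib3 in LMPP-like cells. The difference then was -0.91 ± 0.40 (edgeR adjusted p = 0.260), and Ppp1r15a and Dnajc3 passed in its place.

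**Figure D2:**
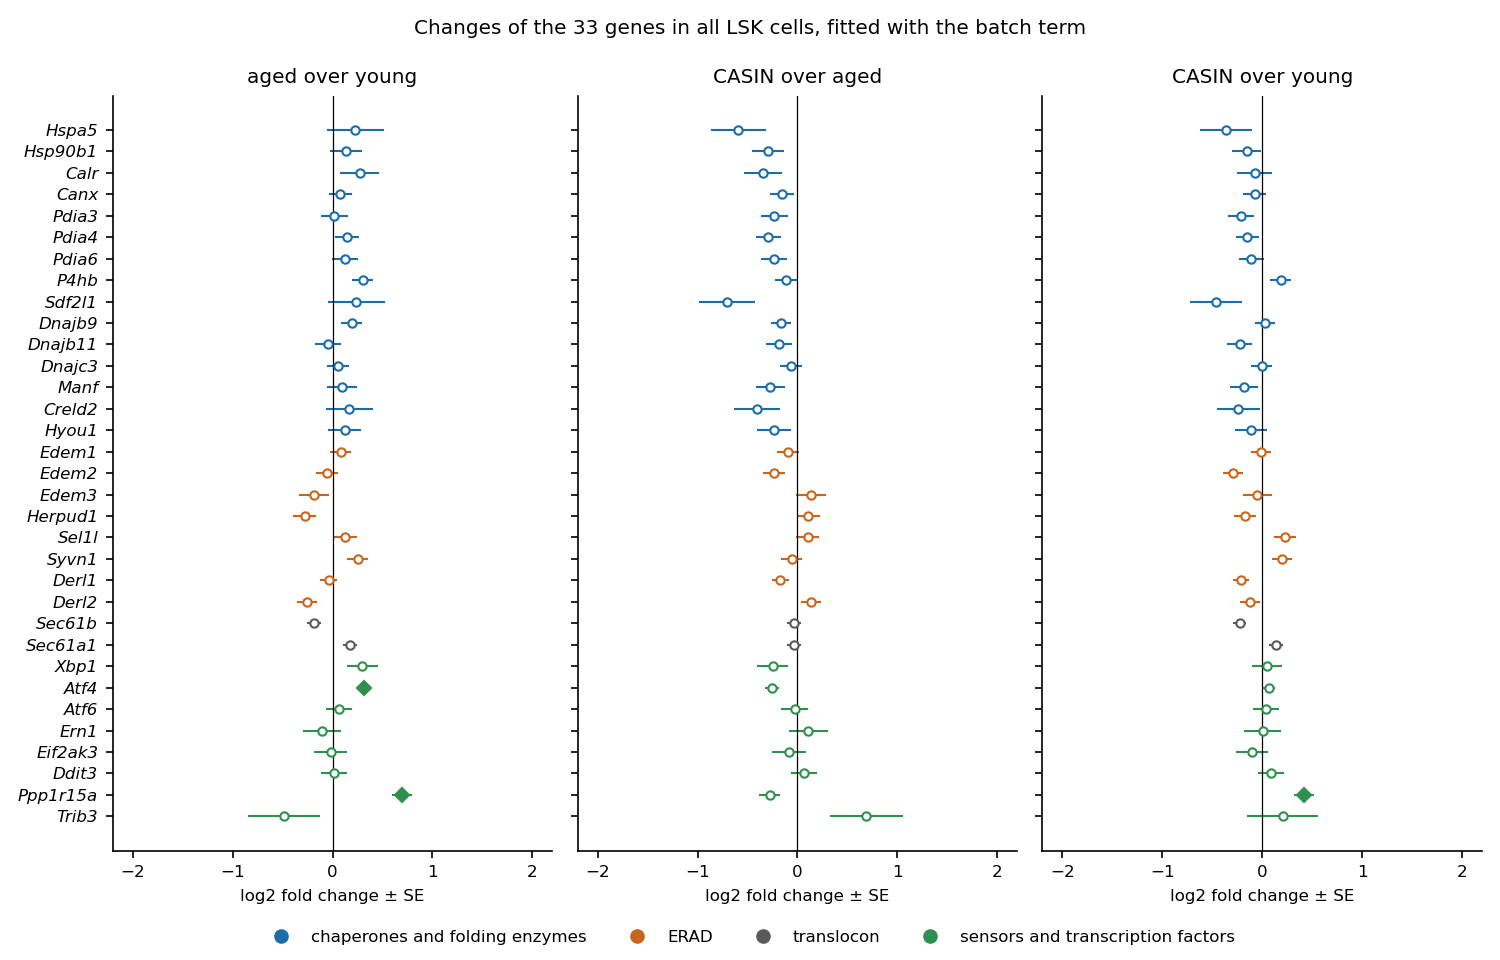
Log2 fold change ± SE (x axis) of the 33 genes in all LSK cells for the 3 comparisons, coloured by role; filled diamonds passed an adjusted p of 0.05 and open circles did not. Atf4 and Ppp1r15a passed for aged over young and Ppp1r15a for CASIN over young, and all 15 chaperones lay below 0 for CASIN over aged.

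Within each batch, the aging difference of the chaperones took opposite signs. Between aged 1 and the young samples of batch 1 the median difference of the 15 chaperones was -0.17 in mean log2(CPM + 1), and between aged 2 and 3 and young 3 in batch 2 it was 0.36. In 13 of the 15 the difference was below 0 in batch 1 and above 0 in batch 2, a pattern held by 21.6% of all genes tested, and the other two, P4hb (0.16 and 0.32) and Dnajb9 (0.19 and 0.24), were higher in aged samples in both. Hspa5 was -0.30 in batch 1 and 0.88 in batch 2, Sdf2l1 -0.45 and 0.86, Calr -0.24 and 0.70, and Creld2, a disulfide isomerase-like protein, -0.34 and 0.70. The fitted chaperone median depended on single libraries. Without young 3, the only young sample of batch 2, it was -0.093 with 12 of 15 below 0. Without aged 1, the only aged sample of batch 1, it was 0.34 with 15 of 15 above 0. Without aged 3 it was 0.016, with 9 above 0.

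The genes called with age kept their sign, which a fit over both batches favours, so this is not separate support. In all LSK cells Ppp1r15a was higher in aged samples in both batches (0.80 and 0.52), as was Atf4 (0.38 and 0.20). Sec61b, called with age in HSC-1-like cells only, was lower in both (-0.24 and -0.18). Xbp1, the target of Ire1, was -0.025 and 0.63, Ern1, Ire1 itself, 0.30 and -0.51, and Trib3 0.61 and -1.33. Of the ERAD genes, Herpud1 (-0.21 and -0.33) and Derl2 (-0.27 and -0.21) were lower in both batches, and Edem2 was -0.27 and 0.15. Over the 33 genes, 12 kept their direction in both batches (36.4%), against 57.1% of all genes. The difference between the batches was tested as an interaction, a comparison added after the data had been seen: 1 of 33 genes passed (3.09% of all genes), Trib3 at -2.04 ± 0.33 in batch 2 relative to batch 1 (edgeR adjusted p = 0.0223). Calr (0.95, adjusted p = 0.0644), Sdf2l1 (1.36, adjusted p = 0.0864) and Hspa5 (1.22, adjusted p = 0.124) did not pass in that edgeR fit, which has 1 or 2 samples of a group in each batch.

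In batch 2 the RNA of plasma cells and B cells, which lie outside the LSK gate, had the same order as Hspa5 over 4 samples. This was not particular to that list, which was among several read. The summed immediate-early and heat-shock genes, given below, were also highest in the aged samples of that batch. The summed CPM of 12 such genes was 333 and 668 in aged 2 and 3, 210.4 in young 3 and 216 in CASIN 3, and 95.8 to 308 in batch 1. Igkc, the antibody kappa chain, stood at 68.9, 109, 173 and 387 CPM in young 3, CASIN 3, aged 2 and aged 3, the same order as Hspa5 in those 4 samples (911, 1188, 1373 and 2039.6). All 12 genes had a UMI, but the plasma-cell genes Mzb1 and Tnfrsf17 were low in those samples (0.468 to 2.88 and 0.0902 to 0.386 CPM). Within HSC-1-like cells Hspa5 stood at 998, 1239.7, 1322 and 2008 CPM, about as in all LSK cells, and the list at 149, 196, 276 and 624. The part of this RNA in the chaperone values was not tested.

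**Figure D3:**
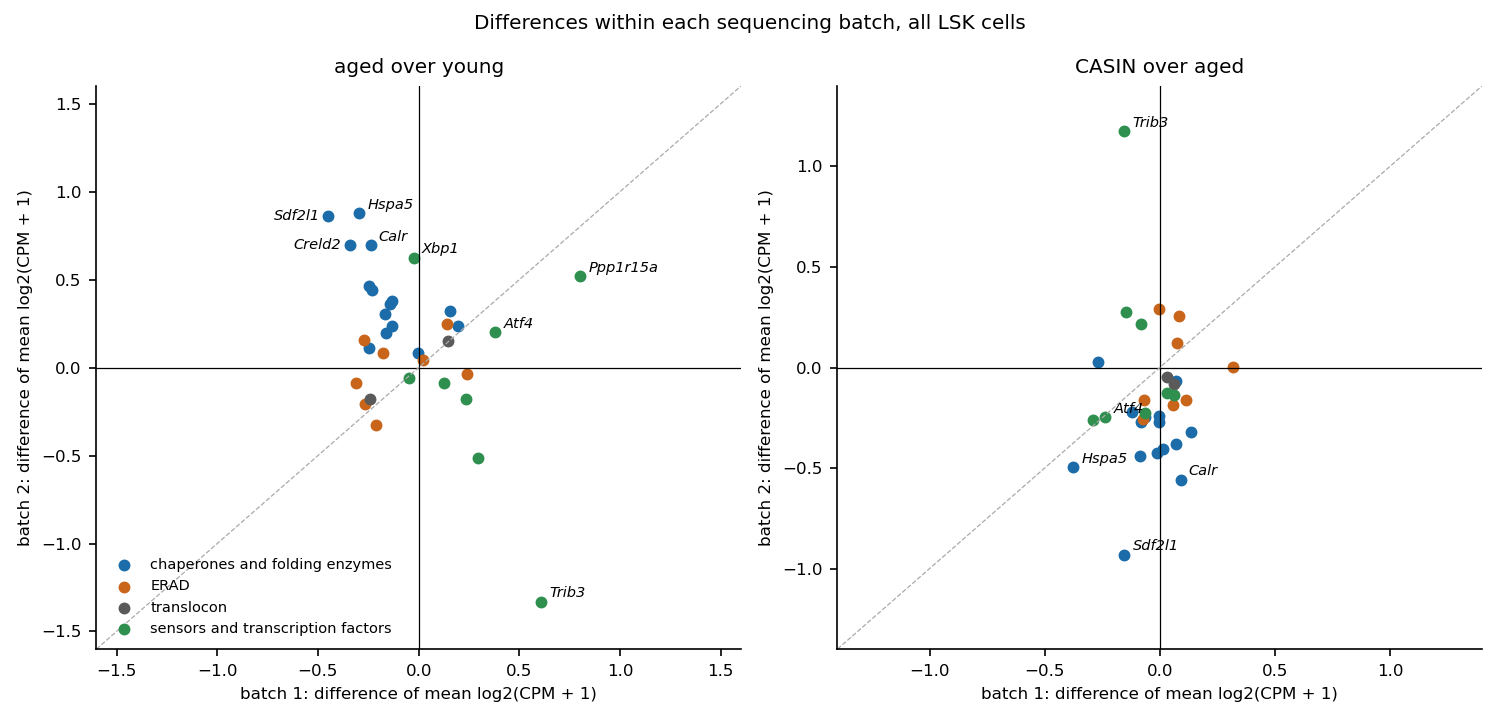
Difference of mean log2(CPM + 1) within batch 1 (x axis) and within batch 2 (y axis) for the 33 genes in all LSK cells, coloured by role, with a dashed line of equal differences. For aged over young 13 of 15 chaperones sit in the upper left corner, lower in batch 1 and higher in batch 2, and for CASIN over aged 9 of 15 sit in the lower left corner.

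None of the 33 genes passed between CASIN and aged samples by the edgeR test, in all LSK cells or in any of the 4 classes. The same was true of the whole table: 0 of 13642 genes passed in all LSK cells (0%), as in HSC-1-like (0%), HSC-2-like (0%), HSC-3-like (0%) and LMPP-like cells (0%), with 439, 384, 326, 351 and 557 genes below an unadjusted p of 0.05. DESeq2 also called 0 of the 33 in all LSK cells and in the classes. In all LSK cells 4 of the 33 had an unadjusted p below 0.05, and all 4 had a log2FC below 0. These were Atf4 (-0.25 ± 0.071), Ppp1r15a (-0.28 ± 0.10), Sdf2l1 (-0.70 ± 0.28) and the disulfide isomerase Pdia4 (-0.29 ± 0.12), each with an edgeR adjusted p of 0.987. In LMPP-like cells 7 of 33 had an unadjusted p below 0.05, the lowest that of Trib3 (log2FC 1.17 ± 0.35, edgeR adjusted p = 0.955). In HSC-1-like cells 4 did, with Atf4 at -0.33 ± 0.087 and the ERAD genes Derl2 and Sel1l above 0 (0.32 ± 0.12 and 0.32 ± 0.13). In HSC-2-like cells 1 of the 32 counted genes did, Atf4 (-0.30 ± 0.13), and in HSC-3-like cells 5 of 32. Of these Edem2 had the lowest p. It measured 80.0, 68.1 and 63.9 CPM in the young samples, 83.4, 66.4 and 70.9 in the aged and 44.6, 44.2 and 48.9 in the CASIN samples, so that the 3 CASIN values lay below the 6 others. Its log2FC there was -0.69 ± 0.18 (edgeR adjusted p = 0.894), and it was lower within both batches (-0.89 and -0.48). The other 4 in HSC-3-like cells were Hspa5 (-0.51 ± 0.23), Calr (-0.48 ± 0.18) and Creld2 (-0.62 ± 0.27) below 0 and Trib3 (0.78 ± 0.26) above. The study reported Hspa5 and Edem2 as lower after CASIN in its clusters HSC-2 and HSC-3. It used a test over single cells and another threshold, so its calls and these are not directly comparable. In HSC-2-like cells here neither gene passed. The differences within batches 1 and 2 there were -0.14 and -0.22 for Hspa5 and -0.17 and -0.43 for Edem2. With no filter on low counts edgeR called Hspa5 in LMPP-like cells (-0.53, adjusted p = 0.00174) and in HSC-3-like cells (-0.52, adjusted p = 0.0446), and Sdf2l1 in LMPP-like cells (-0.61, adjusted p = 0.0417). In batch 2 alone, with 1 residual degree of freedom, edgeR called Hspa5, Calr and Sdf2l1 lower and Trib3 higher in all LSK cells (adjusted p = 0.0137, 0.0117, 0.00164 and 1.16e-05).

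By direction the chaperones stood together. All 15 had a log2FC below 0 in all LSK cells (median -0.23), where 52.7% of all genes did and the median of all genes was -0.011. Hspa5 was -0.59 ± 0.27 (edgeR adjusted p = 0.987), Calr -0.35 ± 0.19 and P4hb -0.11 ± 0.11 (edgeR adjusted p = 0.987 for both genes). In HSC-1-like cells 14 of 15 chaperones were below 0 (median -0.16), in HSC-3-like 15 (median -0.28), in LMPP-like 14 (median -0.25), but in HSC-2-like 7 (median 0.018). The ERAD genes were split, 4 of 8 below 0 (median 0.022). Edem2 gave -0.24 ± 0.11, Herpud1 0.11 ± 0.11, Derl1 -0.17 ± 0.087 and Derl2 0.13 ± 0.10 as log2FC. Both translocon genes were near 0 (Sec61b -0.037 ± 0.069, Sec61a1 -0.034 ± 0.071), and 5 of 8 sensors and transcription factors were below 0, the largest value being that of Trib3 at 0.69 ± 0.37.

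Within batches the chaperone direction came mainly from batch 2. The median difference of the 15 was -0.013 between CASIN 1 and 2 and aged 1, and -0.32 between CASIN 3 and aged 2 and 3, and 9 of 15 were lower within both batches, against 19.1% of all genes. Hspa5 was among the 9 (-0.38 and -0.49), as was Sdf2l1 (-0.15 and -0.93), while Calr was not (0.090 and -0.56). Atf4 (-0.24 and -0.25) and Ppp1r15a (-0.29 and -0.26) were lower by like amounts in each, and Trib3 was -0.15 and 1.17. Leaving out each library in turn kept 14 or 15 of the 15 chaperones below 0, with medians from -0.43 without aged 1 to -0.15 without aged 3. The aged samples also enter the comparison of aged with young, so the opposite signs of the chaperones in these comparisons share their data. After Sdf2l1 and Hspa5, Creld2 had the lowest log2FC of the chaperones, -0.40 ± 0.23, from 37.6, 32.6 and 29 CPM in the young samples, 27.4, 43.1 and 52.8 in the aged and 31.1, 21.3 and 34.9 in the CASIN samples (edgeR adjusted p = 0.987). The 10 genes with an ERSE or ERSE-II had a median of -0.21, with 9 below 0, and the other 18 with a window a median of -0.10, with 12 below 0.

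Between CASIN and young samples 1 of the 33 genes passed in all LSK cells, Ppp1r15a at 0.42 ± 0.099 (edgeR adjusted p = 0.0497), where 4.27% of all genes passed. The call was lost without any of 5 libraries (young 1 and 2 and the 3 CASIN samples, adjusted p from 0.120 to 0.198). In HSC-1-like cells 3 of 33 passed (16.3% of all genes): Ppp1r15a at 0.56 ± 0.11 (edgeR adjusted p = 0.00311), Sec61b at -0.35 ± 0.081 (edgeR adjusted p = 0.0106) and Sdf2l1 at -0.77 ± 0.23 (edgeR adjusted p = 0.0401). Sdf2l1 measured 49.9, 30.8 and 19.6 CPM in the young samples, 19.5, 16.5 and 23.8 in the aged and 25.7, 18.8 and 12.7 in the CASIN samples in those cells, and the CASIN sample was below the young in both batches. Ppp1r15a and Sec61b passed with every library left out in turn (log2FC from 0.44 to 0.63 and from -0.39 to -0.32). Sdf2l1 did not pass without young 1, aged 2 or any CASIN sample (adjusted p from 0.0502 to 0.227, log2FC from -0.95 to -0.49).

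In HSC-2-like cells 2 of the 32 genes counted there passed, both lower in CASIN than in young samples, where 8.78% of all genes passed. Edem2 was -0.63 ± 0.18 (edgeR adjusted p = 0.0380), from 73.5, 77.4 and 65.7 CPM in the young samples, 51.9, 64.4 and 62.1 in the aged and 54.3, 38.8 and 46.8 in the CASIN samples. Sec61b was -0.44 ± 0.12 (edgeR adjusted p = 0.0277), from 555, 531 and 485 CPM in the young samples, 402, 325 and 400.2 in the aged and 403, 408 and 312 in the CASIN samples. In both genes the 3 CASIN values lay below the 3 young values, and so did the 3 aged values. CASIN and young samples differ in age as well as in treatment. The call of Edem2 was lost without young 1, young 2, CASIN 2 or CASIN 3 (adjusted p up to 0.271, log2FC from -0.79 to -0.46) and that of Sec61b without young 1, young 2 or any CASIN sample (adjusted p up to 0.129). In HSC-3-like cells 0 of 32 passed by edgeR (2.87% of all genes), with 7 below an unadjusted p of 0.05, and in LMPP-like cells 0 of 33 (0.0555% of all genes), with 1. Over all genes tested, 1179 of 8473 and 655 of 10807 were below an unadjusted p of 0.05 in those classes. Of the chaperones 13 of 15 were below 0 in all LSK cells (median -0.15), against 50.5% of all genes, but their median was -0.23 in a fit to batch 1 alone and 0.067 in a fit to batch 2 alone. Ppp1r15a was higher than in young samples in both batches (0.51 and 0.26), and Sec61b was lower in both (-0.18 and -0.26). With an ERSE or ERSE-II, 9 of 10 genes were below 0 (median -0.13), and 9 of 18 whose window holds neither (median -0.0035).

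More of the 33 genes differed between the sequencing batches than between any of the groups. In a fit with group and batch, a comparison added after the data had been seen, 24 of 33 genes were higher in batch 2 and 4 were lower, against 34.3% and 37.6% of all genes. Of the sensors and transcription factors 7 of 8 were higher (median log2FC 1.37), as were 7 of 8 ERAD genes (median 1.03), and of the chaperones 9 of 15 were higher and 2 lower (median 0.40). Trib3 was 8.35-fold higher in batch 2 (3.06 ± 0.30, edgeR adjusted p = 1.29e-05), from 3.93 to 7.19 CPM in batch 1 to 22.6 to 69.8 CPM in batch 2. Ern1 was 5.05-fold higher, Herpud1 4.45-fold, Atf6 3.79-fold, Edem1 3.66-fold, Hspa5 3.37-fold, Syvn1 2.70-fold, Xbp1 2.66-fold and Atf4 2.51-fold. The 4 genes that were lower were Ppp1r15a (0.228-fold, -2.13 ± 0.090, edgeR adjusted p = 1.69e-07), Sdf2l1 (-0.59), Sec61b (-0.47) and Pdia4 (-0.32). Atf4 and Ppp1r15a, which were both higher in aged samples, thus differed between the batches in opposite directions.

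The ranges of the batches did not overlap for the genes that differed most. Herpud1 ran from 59.6 to 74.3 CPM in batch 1 and from 229 to 329 CPM in batch 2, Ern1 from 10.7 to 14.8 and from 49.7 to 85.4 CPM, and Ppp1r15a from 158 to 294 and from 45.5 to 70.7 CPM. The classes gave like counts: 27 genes were higher and 3 lower in HSC-1-like cells (34.6% of all genes higher), 20 and 2 in HSC-2-like cells (23.8%), 22 and 3 of 32 in HSC-3-like cells (28.8%), and 24 and 2 in LMPP-like cells (33.2%). For HSC-2-like cells this count was made over all 33 genes, with Ppp1r15a, which marks them, included. With cells of at most 5% mitochondrial UMIs kept, 22 genes were higher and 4 lower, with medians of 0.18 for the chaperones, 0.78 for the ERAD genes and 1.42 for the sensors. With a limit of 20%, 26 were higher and 3 lower, with medians of 0.54, 1.46 and 1.36, so the order of ERAD genes and sensors turned with the limit. All 10 genes with an ERSE or ERSE-II were above 0 (median 0.76), as were 13 of the other 18 with a window (median 0.57).

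A list of immediate-early and heat-shock genes, which can respond to handling, also differed between the batches. It holds markers of HSC-2-like cells, such as Fos, Jun and Egr1, so its sum can also follow the share of those cells. It also holds Nr4a1 and Dnajb1, which the study reported as lower after CASIN. The summed CPM of 24 such genes was 9157 to 13246 in batch 1 and 3882 to 8725 in batch 2. By group it was 9157, 9245 and 3882 in young 1 to 3, 13246, 8725 and 6393 in aged 1 to 3, and 12539.8, 11884 and 4481 in CASIN 1 to 3. Within each batch the aged samples had the higher sums, as they had the higher Ppp1r15a. Its part in the values of Ppp1r15a and Atf4 was not tested. The summed CPM of other cell types was as follows: T-cell genes ran from 36.7 to 57.4 CPM, red-cell genes from 12.9 to 47.8, endothelial and stromal genes from 41.3 to 71.6, granulocyte and monocyte genes from 790.2 to 1530.3, and mast-cell and basophil genes from 8.02 to 29.0 except in young 3, at 119.7.

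**Figure D4:**
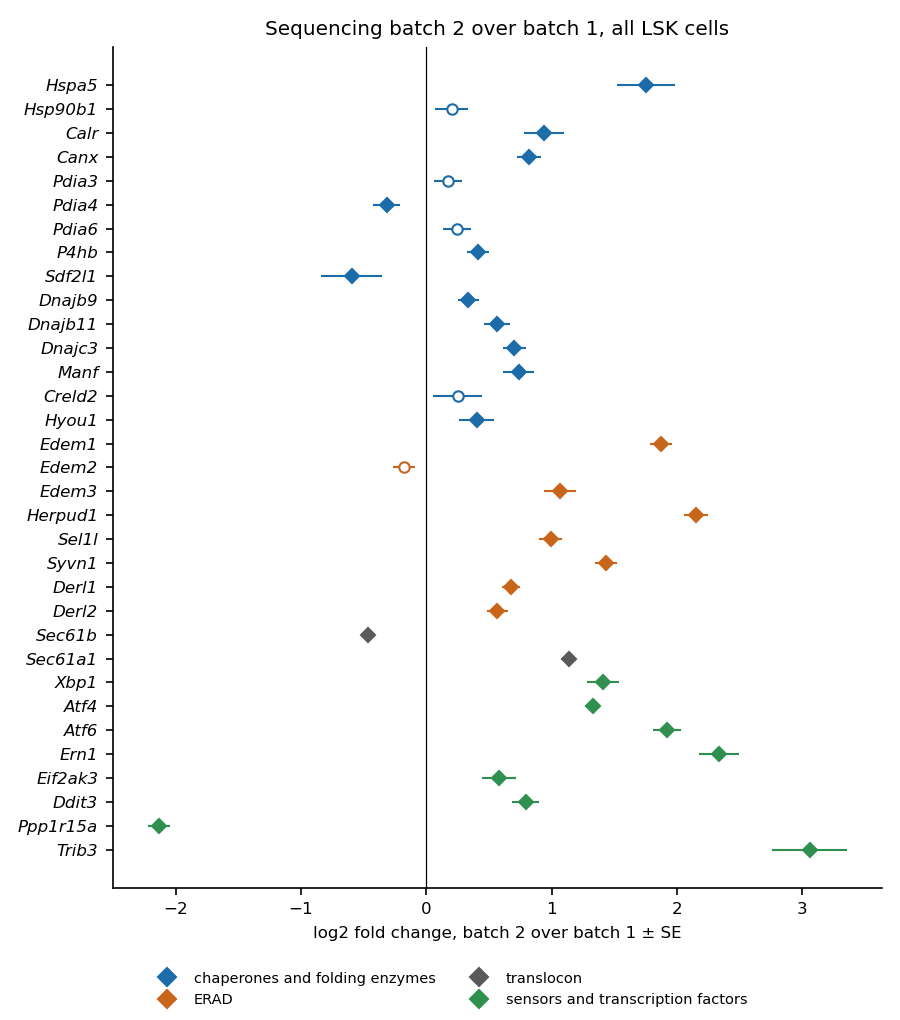
Log2 fold change ± SE (x axis) of batch 2 over batch 1 in all LSK cells for the 33 genes, coloured by role; filled diamonds passed an adjusted p of 0.05. Trib3 was highest at 3.06 and Ppp1r15a lowest at -2.13, and 24 genes were higher and 4 lower in batch 2.

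In CC-1-like, LMPP-like and MPP3-like cells the 33 genes differed from HSC-1-like cells about as often as all genes did. Classes come from clusters of the same cells, so these levels are a description without a test, and a difference is counted only where it has the same sign in all 9 samples. CPM is a share of the UMIs of a class, and classes differ in UMIs per cell. CC-1-like cells held 26437346 UMIs in 1098 cells, and HSC-1-like cells 44096590 in 4146. A lower CPM in a class therefore need not mean fewer molecules per cell. In CC-1-like cells (1098, with histone and Mki67 RNA), 5 of 15 chaperones and 1 of 2 translocon genes were higher than in HSC-1-like cells in all 9 samples, and 1 chaperone, 2 ERAD genes and 3 sensors were lower. In all 6 of 33 were higher and 6 lower, against 17.2% and 21.9% of all genes. In LMPP-like cells 4 were higher (13.5% of all genes) and 4 lower (17.8%), and in MPP3-like cells (4363) 4 were higher (12.9%) and 3 lower (13.7%). In HSC-3-like cells 2 were higher (0.982%) and 1 lower (2.18%).

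Over the named classes Sdf2l1 had the widest range of the chaperones, 3.11-fold, with 75.1 ± 30.1 CPM (mean ± SD, n = 9) in CC-1-like cells. It stood at 54.5 ± 20.4 in MPP3-like, 49.1 ± 13.8 in LMPP-like, 42.9 ± 14.7 in CC-2-like, 34.8 ± 18.8 in HSC-3-like and 24.1 ± 11 in HSC-1-like cells. It was higher than in HSC-1-like cells in 9 of 9 samples in MPP3-like, LMPP-like, CC-1-like and CC-2-like cells, and the neighbours in that order overlap within their SD. Dnajb9 (ERdj4), a BiP cochaperone that also binds Ire1, ran the other way, from 120.0 ± 35.7 CPM in HSC-2-like and 111 ± 27.3 in HSC-1-like cells to 69.2 ± 13.9 in LMPP-like and 43.7 ± 11.6 in CC-1-like cells, where it was lower in 9 of 9 samples. Calr was higher than in HSC-1-like cells (432 ± 189.8 CPM) in all 9 samples in MPP3-like (582 ± 277) and CC-1-like cells (655 ± 259). Hspa5 differed less between classes than between batches, at 339.8 and 1392 CPM (means of batches 1 and 2) in HSC-1-like, 343 and 1417 in LMPP-like and 360.1 and 1139 in CC-1-like cells. A cluster of 879 cells led by Pf4 and S-phase genes, left unnamed, had 10 of 15 chaperones above HSC-1-like cells in all 9 samples and 1 below, and 4 sensors below, against 14.4% of all genes above and 14.4% below. There Sdf2l1 stood at 117 CPM.

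Of the ERAD genes, over the named classes, Derl2 was highest in CC-1-like cells (40.4 ± 9.57 CPM) and lowest in HSC-2-like cells (22 ± 3.62), and Herpud1 was highest in HSC-1-like cells (205 ± 167) and lowest in LMPP-like cells (126 ± 78). The Herpud1 difference belonged to batch 2, with 66.4 against 63 CPM in batch 1 and 379 against 206 CPM in batch 2. Sec61b was higher in LMPP-like (616 ± 84 CPM) than in HSC-1-like cells (408 ± 85.1) in 9 of 9 samples, and Sec61a1 ran from 67.1 ± 36.8 in HSC-1-like to 48.1 ± 27 in CC-2-like cells. Trib3 had the widest range of the 33 genes over the named classes, 5.61-fold, from 46.6 ± 42.4 CPM in HSC-1-like to 8.30 ± 8.14 in LMPP-like cells. It was lower than in HSC-1-like cells in 9 of 9 samples in MPP3-like, LMPP-like, CC-1-like and CC-2-like cells. This was so in batch 1, at 12.2 against 4.12 CPM in LMPP-like cells, as in batch 2, at 89.6 against 13.5. Ppp1r15a stood at 231 ± 150.1 CPM in HSC-1-like, 166 ± 109.9 in HSC-3-like, 132 ± 77.7 in MPP3-like, 108 ± 63.9 in LMPP-like and 93 ± 48 in CC-1-like cells, lower than in HSC-1-like cells in 9 of 9 samples in each. The HSC-1-like level includes 1004 of the 1046 HSC-2-like cells, which Ppp1r15a marks, and their part in this order was not tested. Xbp1 was lower in LMPP-like and CC-1-like cells in 9 of 9 samples (108 ± 66 and 77 ± 49 against 131 ± 76.7 CPM).

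**Figure D5:**
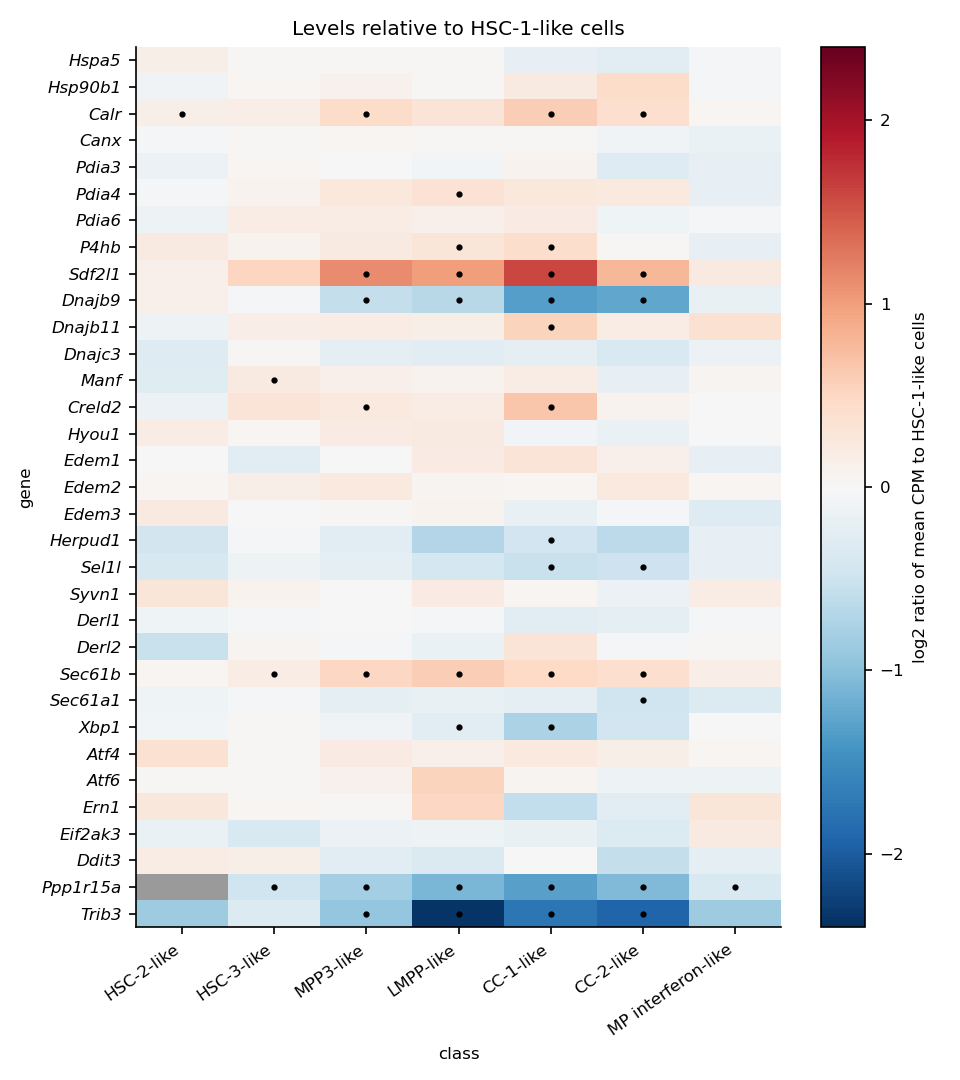
Log2 ratio of the mean CPM over 9 samples in each class (columns) to that in HSC-1-like cells, for the 33 genes (rows); a dot marks the same sign in all 9 samples, and Ppp1r15a in HSC-2-like cells is grey because it marks them. Sdf2l1 and Sec61b were higher in MPP3-like, LMPP-like and cycling cells, and Dnajb9, Ppp1r15a and Trib3 were lower. The HSC-1-like cells used as reference include 1004 of the 1046 HSC-2-like cells.

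Other genes of the pathway were read from 5 further lists of 107 genes in all, none of them among the 33, and 27 of the 28 listed genes of the integrated stress response were high enough to be tested. Between CASIN and aged samples 0 genes of the 5 lists passed by edgeR in all LSK cells or in any class. Between aged and young, in all LSK cells, 1 of 27 genes of the integrated stress response rose, Atf3, a transcription factor downstream of Atf4 that is also an immediate-early gene (1.51 ± 0.28, edgeR adjusted p = 0.0229), and 1 fell. The latter was Mthfd2, a mitochondrial folate enzyme (-0.96 ± 0.18, edgeR adjusted p = 0.0248). Casp12, an ER-associated caspase, was the only one of 14 genes of ER membrane sensing and processing that passed (1.37 ± 0.24, edgeR adjusted p = 0.0202). Selenom, an ER selenoprotein, was the only one of 25 other folding genes to pass (1.61 ± 0.35, edgeR adjusted p = 0.0376). None of 20 other ERAD genes and none of 20 translocation and signal peptide genes passed there. Over all genes tested in that comparison, 4.1% passed in either direction. Casp12 (1.26 ± 0.23, edgeR adjusted p = 0.0219) and Selenom (1.76 ± 0.35, edgeR adjusted p = 0.0276) were also higher in CASIN than in young samples, where 4.27% of all genes passed. Selenom stood at 18.8, 20.9 and 19.3 CPM in young, 115, 33.6 and 22.8 in aged and 81.7, 83.3 and 47.4 in CASIN samples.

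In HSC-1-like cells 3 of 27 integrated stress response genes rose with age and 4 fell, where 7.31% of all genes rose and 3.75% fell. Atf3 (1.34 ± 0.22, edgeR adjusted p = 0.00218), the C/EBP factor Cebpb (0.88 ± 0.18, edgeR adjusted p = 0.00806) and the amino acid transporter chain Slc3a2 rose. Phgdh, the entry enzyme of serine synthesis (-0.81 ± 0.15, edgeR adjusted p = 0.00472), Mthfd2, the asparaginyl-tRNA synthetase Nars and the kinase Eif2ak2 fell. Between CASIN and young, 5 of the 27 were higher and 3 lower there (9.58% and 6.68% of all genes). In that comparison 2 of 20 translocation genes were lower, Sec11c, a signal peptidase subunit (-0.46 ± 0.097, edgeR adjusted p = 0.00582), and Ssr2, a subunit of the translocon-associated complex (-0.37 ± 0.089, edgeR adjusted p = 0.0122). Between the batches, where 34.3% of all genes were higher in batch 2 and 37.6% lower, 19 of 27 integrated stress response genes were higher and 1 lower (median log2FC 0.98), led by Chac1, a glutathione-degrading enzyme (7.95 ± 0.39, from 0 to 0.285 CPM in batch 1 to 11.1 to 32.2 CPM in batch 2), and Slc7a11, the cystine transporter (6.19 ± 0.34). Of the other ERAD genes 15 of 20 were higher and 2 lower (median 0.56), and of the ER membrane sensing genes 9 of 14 and 2 (median 0.68). Of the translocation genes 12 of 20 and 5 (median 0.29), and of the other folding genes 10 of 25 and 7 (median 0.056).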

How the data were processed

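The authors deposited, for each of the 9 samples, a raw matrix of UMI counts per gene and cell barcode, made according to the submitters' processing notes with Cell Ranger 3.1.0 and the mm10 genome build. The deposited counts were used as they stand. Barcodes were kept with 1000 to 40000 UMIs, at most 6000 genes, at most 10% mitochondrial UMIs and a residual within 0.4 of the fit of ln genes on ln UMIs. In all 15856 cells were kept, and the samples hold 17555578 to 35118707 UMIs, which sets the precision of counting only. Cells were normalized with sctransform 0.4.2, integrated over samples and clustered in Seurat 5.3.0 (R 4.3.3) at a resolution of 0.4, or 0.8 for HSC-2-like cells, on 2985 genes, after 15 of the 33 genes had been left out of the 3000 chosen. The automatic doublet threshold of Scrublet (scanpy 1.11.5) marked 67 cells (0.423%), too few to be trusted, so doublets were not removed in the main results. Counts were summed per sample, over all LSK cells or over a class, and tested with the quasi-likelihood test of edgeR 4.0.16 (TMM, low genes filtered, batch as a term, all 9 samples) with Benjamini-Hochberg adjustment over all genes tested and a threshold of 0.05. The study itself compared single cells within batches, and cells are not replicates. DESeq2 1.42.0 was an alternative. Within-batch values are differences of mean log2(CPM + 1). The code was tested on simulated data for aged over young. With a log2FC of 0.5 put in, 13% of the altered genes were recovered in all LSK cells and 19% in HSC-1-like cells. With a log2FC of 1 put in, 61% and 67% were recovered. False calls were 6.33% in all LSK cells and 8.51% in HSC-1-like cells. A gene that did not pass may therefore still differ by such amounts. Promoter windows came from RefSeq.

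The genes and lists were chosen with earlier results of these data known. Values in every sample were given for Hspa5 and Edem2, which the study names, and for each gene past the threshold in a comparison. Since fewer than 8 passed, those with the largest changes in each role were added, 13 in all, and Xbp1 and Creld2 were added after their values were seen. Cite-seq libraries were not analysed here.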

Additional observations from a re-analysis of the deposited data

Results flagged for a closer look

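Trib3 is given here for 2 differences between groups of samples or cells that passed a test of the difference itself. Its aged over young log2FC was lower in LMPP-like than in HSC-1-like cells by a difference of -1.49 (edgeR adjusted p = 0.00171). The class difference was -0.91 without young 3 (edgeR adjusted p = 0.260), where it did not pass, and from -1.60 to -1.41 with any other library left out. Its aged over young log2FC was also lower in batch 2 than in batch 1, by a difference of -2.04 (edgeR adjusted p = 0.0223), and that call was lost without young 1 and with a mitochondrial limit of 5%, while fits without young 3, aged 1 or CASIN 3 could not be made. In batch 2 young 3 held 69.8 CPM of Trib3 in all LSK cells, against 22.6 and 32.7 CPM in aged 2 and 3. The CASIN sample of that batch held 62.5 CPM. The mast-cell and basophil genes were also highest in young 3, at a summed 119.7 CPM, and their part in these values was not tested.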

How the results depend on the processing

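Of the results for single named genes under the alternatives, 3598 kept their direction and their side of the threshold, 261 changed sign without passing in either fit, 48 passed only under the alternative and 83 passed only in the reported fit. No result that passed in either fit changed sign. Most of the 3598 passed in neither fit, so that number says little about the calls. Among the reported calls, that of Sec61b for aged over young in HSC-1-like cells was kept least, in 6 of 21 alternatives. In the same cells and comparison that of Ppp1r15a was kept in 19 of 21. The number of genes past the threshold was less stable. For aged over young in all LSK cells, 2 passed. The number was 1 with no filter on low counts, with DESeq2 size factors or without the cells of the highest Scrublet scores. It was 0 without the batch term or with only the 2 groups fitted, and 0 to 2 with a library left out. In batch 2 alone, with 1 young sample and 1 residual degree of freedom, Ppp1r15a and Atf4 did not pass. The genes that did pass there are given by log2FC only, because of that single young sample. It was 0.91 for Hspa5, 0.89 for Sdf2l1, 0.73 for Creld2, 0.70 for Calr, 0.65 for Xbp1 and -1.33 for Trib3. The same aged samples enter CASIN over aged in batch 2 alone. For aged over young in at least 1 class, 3 passed, and 0 without the batch term. For CASIN over aged in all LSK cells, 0 passed, and 4 in batch 2 alone. In at least 1 class 0 passed, and 2 with no filter. For CASIN over young in all LSK cells, 1 passed, against 0 with no filter, with DESeq2 size factors, without the batch term, without the highest Scrublet scores, with a mitochondrial limit of 5% and in batch 2 alone, 2 by the DESeq2 Wald test, 3 in batch 1 alone and 0 to 2 with a library left out. In at least 1 class 4 passed, against 0 without the batch term, 0 in batch 2 alone and 2 to 6 with a library left out. The difference between LMPP-like and HSC-1-like cells passed for 1 gene, against 3 with no filter and 1 to 2 with a library left out. The difference between batches passed for 1, against 2 with no filter, 0 with the limit of 5% and 0 to 4 with a library left out. The batch comparison kept 26 to 30 genes. The causes were not tested. The settings that left out Scrublet scores or a whole batch, and all those of the batch comparisons, were chosen after seeing the data, and the planned removal of called doublets was not run.

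The correlation of same-numbered samples, after group and batch, ran from -0.48 to 0.27. With 9 samples few residual degrees of freedom remain after group and batch, so these values cannot show whether the replicate numbers pair the samples. The samples numbered 2 are also spread over both batches. With the replicate block, 0 genes passed for aged over young, 0 for CASIN over aged and 0 for CASIN over young in all LSK cells, and 2, 0 and 2 in at least 1 class. Leaving out 1 library leaves 1 batch with fewer samples of a group, and low genes such as Eif2ak3 and Edem3 had the fewest UMIs, so small changes in them were not detectable at this depth.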

Other observations

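In HSC-2-like cells, the CASIN over aged difference of the 33 genes had the same sign in both batches for 23 (69.7%), against 48.9% of all genes tested there, with 15 higher and 8 lower in both. The 8 include Ppp1r15a (-0.30 and -0.88), which marks those cells and is not counted in their other results. In LMPP-like cells the aged over young difference was above 0 in batch 2 for 26 of the 33 genes and in batch 1 for 11. A cluster of 483 cells led by Cxcl12, left unnamed, had 2 of the 8 sensors and transcription factors and 2 of the 8 ERAD genes above HSC-1-like cells in all 9 samples, where none of the named classes compared had any. In all 11 of the 33 genes were above there, against 12.2% of all genes, and the median log2 ratio of the 33 genes (0.26) was near that of all genes (0.25).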
